A study of Mus musculus with 6 samples.

Results

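The genes examined here make, interconvert and break down the polyamines putrescine, spermidine and spermine, or control the first enzyme of their synthesis. Members were chosen by name, and all 10 of the 10 listed genes (*Odc1*, *Amd1*, *Amd2*, *Srm*, *Sms*, *Sat1*, *Smox*, *Oaz1*, *Oaz2* and *Azin1*) were found among the 12353 genes measured in mouse gastrocnemius, a calf muscle made mostly of fast fibers. RNA came from 3 Nogo knock-out mutant mice (Nogo-/-, Sample 4, 5 and 6) and 3 wild-type mice (Nogo+/+, Sample 1, 2 and 3), with 1 library per mouse. The labels name no treatment, and the sources used here give no age, sex or strain background for the mice of this experiment. The Y-linked genes *Ddx3y*, *Eif2s3y*, *Kdm5d* and *Uty* were detected in all 6 libraries. Levels are in FPKM, the fragments of a gene scaled for transcript length and library depth, so that levels of different genes can be set side by side.

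Polyamines are small, positively charged molecules that bind nucleic acids and are needed for growth and for translation. Ornithine decarboxylase (*Odc1*) forms putrescine, S-adenosylmethionine decarboxylase (*Amd1*, *Amd2*) supplies the aminopropyl groups, and spermidine synthase (*Srm*) and spermine synthase (*Sms*) add them in turn. Spermidine/spermine acetyltransferase (*Sat1*) and spermine oxidase (*Smox*) run the pathway backwards, antizymes (*Oaz1*, *Oaz2*) bind ornithine decarboxylase and send it to the proteasome, and the antizyme inhibitor (*Azin1*) draws antizyme away from it. In mouse muscle several of these genes are known to respond to androgens and to atrophy.

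The libraries held about 13691000 to 14555000 fragments in Nogo-/- and 13432000 to 14349000 in Nogo+/+ muscles, as recovered from the steps of low FPKM values, 95% to 98.0% of which lay within 0.1 of a whole number of fragments. *Rtn4* is the gene that encodes Nogo (chromosome 11, 29692947 to 29744331 on GRCm38). It had 0.423, 0.312 and 0.368 FPKM in Nogo-/- muscles, against 414, 429 and 425 FPKM in Nogo+/+ muscles. This matches the genotype assigned to each library from the study's supplementary gene list. The 8 muscle fiber markers (*Acta1*, *Ckm* and others) summed to 27222 to 29049 FPKM in Nogo-/- and 28921 to 29610 FPKM in Nogo+/+ muscles. Quantile normalization set *Acta1*, *Ckm*, *Myh4* and *Tnnt3* to the same values in every library, so no test is given for these. *Myh1*, *Myh2*, *Pvalb* and *Mylpf* had log2 fold changes of 0.03, -0.12, 0.03 and -0.04. None of them passed by limma (adjusted p of 0.863, 0.245, 0.358 and 0.249). Sample 6 stood apart in 8 skin keratinocyte markers, whose summed level was 217 FPKM there and 3.04 to 13.8 FPKM in the other 5 libraries. Sample 4 had the highest summed level of 8 adipocyte markers, 902 FPKM.

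Sequence sets the limits on what can be told apart among these genes. *Amd2* is a second gene for S-adenosylmethionine decarboxylase that lies on the same chromosome as *Amd1*. Of all 50-base stretches in *Amd2* transcripts of GENCODE M21, 85.7% also occur in *Amd1* transcripts, so the split of fragments between them is uncertain. The share found in any other gene was 78.1% for *Amd1*, 24.3% for *Odc1*, 21.0% for *Oaz1*, 17.5% for *Sms* and 7.42% for *Oaz2*. It was 2.72% for *Sat1*, 2.01% for *Srm* and 0 for *Smox* and *Azin1*. For 100-base stretches the shares were 72.9% for *Amd2*, 67.1% for *Amd1*, 16.4% for *Sms*, 14.5% for *Oaz1* and 10.1% for *Odc1*. They were 1.77% for *Oaz2*, 0.126% for *Sat1* and 0 for *Srm*, *Smox* and *Azin1*. How far such sharing affects the levels, or ratios built on them, was not tested. The starts of *Amd1* and *Amd2* show where their likeness begins. The lines give RefSeq sequence around each annotated start on the minus strand of GRCm38.p6 (*Amd1* chr10:40302159-40302286, *Amd2* chr10:35711864-35711991), with capitals for the first 28 bases of a run of 48 bases shared by both genes:
Amd1: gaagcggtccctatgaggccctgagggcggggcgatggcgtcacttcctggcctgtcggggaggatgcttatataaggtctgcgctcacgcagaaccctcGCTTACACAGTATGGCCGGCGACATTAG
Amd2: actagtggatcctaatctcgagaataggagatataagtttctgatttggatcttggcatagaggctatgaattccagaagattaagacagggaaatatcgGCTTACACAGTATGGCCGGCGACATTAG
The shared run begins at the annotated start of *Amd2* and 2 bases after that of *Amd1*. Its 48 bases reach the end of the *Amd1* window, so the run may be longer. Upstream of it the longest shared run was 7 bases, and the upstream part of the RefSeq window had a GC content of 64.3% in *Amd1* and 37.6% in *Amd2*. On the strand shown, the letters TATAA occur 27 bases before the start of *Amd1* and at 2 places upstream of *Amd2*, 123 bases (outside the printed part) and 69 bases before its start. Searched on both strands of the whole 300-base window, they are found in 3 of the 8 polyamine genes in the table and in 24.9% of 32851 promoters.

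The antizyme genes share a further feature, the slippery stop codon at which ribosomes shift frame when polyamines are plentiful, so that the full antizyme is made. The lines below come from GENCODE M21 transcripts on the plus strand of GRCm38 (*Oaz1* chr10:80828262-80828328, *Oaz2* chr9:65686239-65686305) and print the shift site, TCC followed by the stop codon TGA and the next base, in capitals:
Oaz1: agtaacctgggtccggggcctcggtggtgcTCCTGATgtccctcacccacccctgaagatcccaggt
Oaz2: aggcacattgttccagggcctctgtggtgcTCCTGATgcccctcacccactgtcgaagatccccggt
Over these 67 bases, 54 positions are identical in both genes. A frame shift changes the protein made and not the amount of RNA, so FPKM do not measure it.

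The polyamine genes spanned a wide range of levels in this muscle. *Oaz1* had the highest mean over the 6 libraries, 343 FPKM, followed by *Amd1* with 303 and *Smox* with 301 FPKM. These levels exceed those of 98.5% or more of all genes measured. *Oaz2* had a mean of 112 FPKM and *Odc1* 90.0 FPKM, while *Sms* had 34.8, *Sat1* 23.0, *Azin1* 15.4, *Srm* 10 and *Amd2* 1.05 FPKM. Among neighbours in this order, the ranges of *Amd1* and *Smox* overlapped, as did those of *Oaz2* and *Odc1*, and the others did not. *Oaz1* exceeded *Amd1* in each of the 6 libraries.

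**Figure D1:**
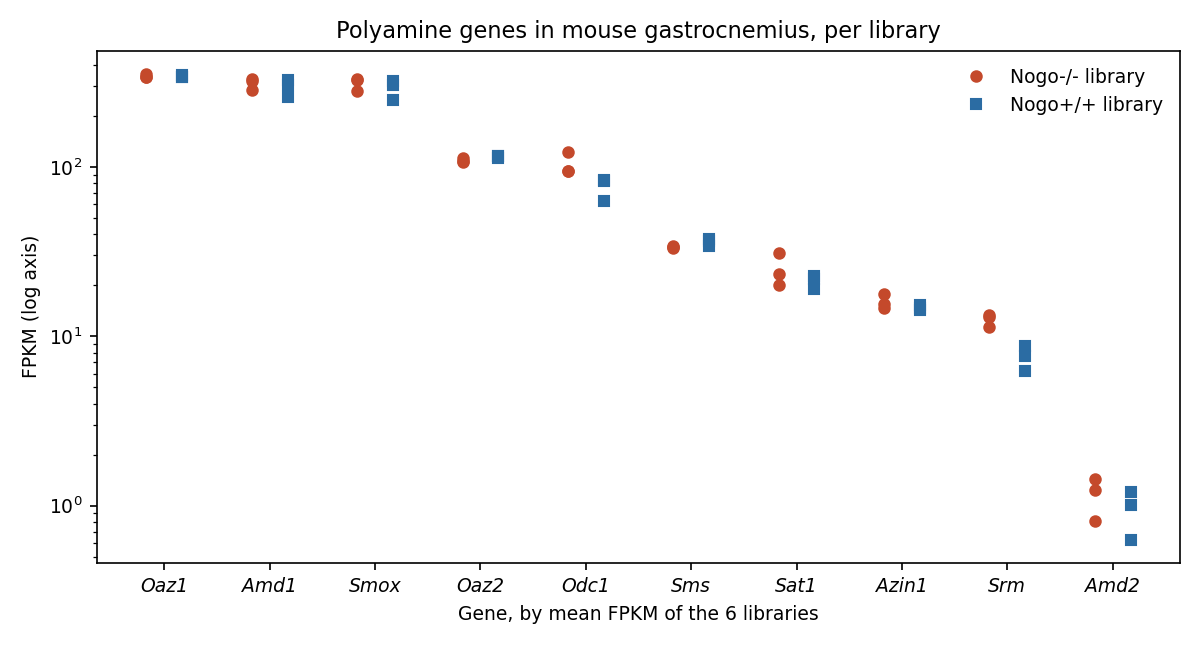
FPKM (log axis) of each polyamine gene in each library, with genes ordered by mean level and Nogo-/- libraries (circles) left of Nogo+/+ libraries (squares). *Oaz1*, *Amd1* and *Smox* lie near 300 FPKM in both genotypes, *Amd2* lies near 1 FPKM, and all Nogo-/- points of *Odc1* and *Srm* lie above their Nogo+/+ points.

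Of the 10 polyamine genes, 1 rose in Nogo-/- muscles, none fell and 9 did not pass the limma test at an adjusted p of 0.05. The gene that rose was *Srm*, by 1.66-fold in mean FPKM before normalization, with a log2 fold change of 0.63 in limma. Over all 12353 genes, 1.89% were called higher and 2.75% lower (4.64% in either direction), against which 1 call of 10 genes is no result about the group. Without quantile normalization the balance over all genes turned, with 302 genes higher and 234 lower in place of 233 and 340. At an unadjusted p under 0.05, limma gave 4 of the 10 genes (*Srm*, *Odc1*, *Sms* and *Oaz2*), where 20.5% of all genes reached that level. Median log2 fold changes were 0.048 for the 10 genes and -0.0067 for all genes, with 7 of the 10 positive. FPKM did not overlap between genotypes for 2 genes that were higher (*Srm*, *Odc1*) and 2 that were lower (*Sms*, *Oaz2*), while 15.9% of all genes were higher and 10% lower without overlap.

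**Figure D2:**
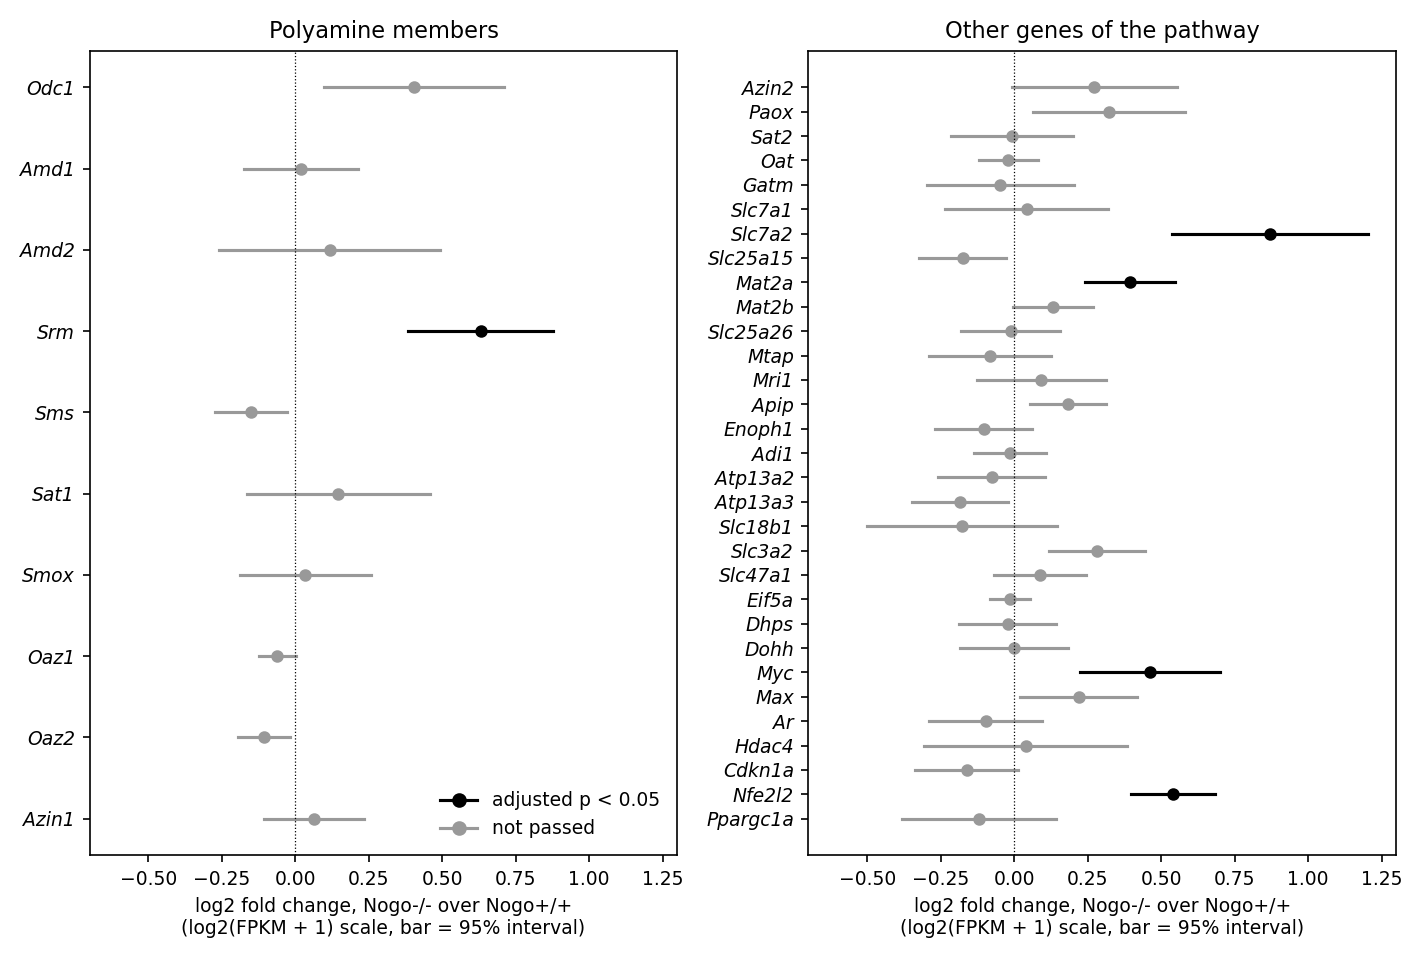
Log2 fold change of Nogo-/- over Nogo+/+ with its 95% interval from limma, on the log2(FPKM + 1) scale after quantile normalization, for the 10 polyamine genes (left) and the 31 measured genes around the pathway (right). Black marks an adjusted p under 0.05, as for *Srm* at 0.63 on the left and for *Slc7a2*, *Mat2a*, *Myc* and *Nfe2l2* on the right, and gray marks genes that did not pass.

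Synthesis begins with *Odc1* (chromosome 12, 17544794 to 17551505), whose product sets the supply of putrescine. *Odc1* had 122.7, 94.4 and 94.1 FPKM in Nogo-/- muscles, against 63.1, 81.9 and 83.5 FPKM in Nogo+/+ muscles. Every Nogo-/- library was above every Nogo+/+ library, but 1 library at each end, Sample 4 and Sample 1, lay well away from the others of its genotype. The means were 104 ± 16.4 FPKM in Nogo-/- and 76.2 ± 11.3 FPKM in Nogo+/+ muscles (SD, n = 3 each). The log2 fold change was 0.40 (SE 0.13, 95% interval 0.10 to 0.71) with an adjusted p of 0.140 by limma, so the difference did not pass. An exact two-sided permutation test of the 6 FPKM gave p = 0.1, and with 3 mice per genotype no smaller p can be reached.

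*Amd1* (chromosome 10, 40287458 to 40302186) encodes the decarboxylase that commits S-adenosylmethionine to polyamine synthesis. *Amd1* had 331, 284 and 321 FPKM in Nogo-/- muscles, against 259, 324 and 302 FPKM in Nogo+/+ muscles. The genotypes overlapped, with the lowest library being Sample 1 of Nogo+/+. Its log2 fold change of 0.02 (SE 0.08, 95% interval -0.17 to 0.21) had an adjusted p of 0.928 in limma. *Amd2* (chromosome 10, 35708675 to 35711892) had 1.23, 0.815 and 1.44 FPKM in Nogo-/- muscles, against 0.630, 1.20 and 1.01 FPKM in Nogo+/+ muscles. These levels rest on about 38 to 64 fragments per Nogo-/- library and 28 to 52 per Nogo+/+ library. The log2 fold change of *Amd2* was 0.12 (SE 0.16, 95% interval -0.26 to 0.49), with an adjusted p of 0.741 by limma. Since *Amd2* had 0.243% to 0.449% of the FPKM of *Amd1* in any library, a small share of misplaced *Amd1* fragments could make up its level. The sum of both genes depends less on that split, although FPKM scale each gene by its own transcript length and both share stretches with further genes. It was 332, 285 and 322 FPKM in Nogo-/- muscles, against 260, 325 and 303 FPKM in Nogo+/+ muscles (exact permutation p = 0.6).

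*Srm* (chromosome 4, 148591503 to 148594993) encodes spermidine synthase and was the member with the largest change. *Srm* had 13.3, 12.9 and 11.3 FPKM in Nogo-/- muscles, against 8.74, 7.62 and 6.21 FPKM in Nogo+/+ muscles. All Nogo-/- libraries lay above all Nogo+/+ libraries, and the gap between the groups exceeded the range within Nogo-/-. The means were 12.5 ± 1.06 FPKM in Nogo-/- and 7.52 ± 1.27 FPKM in Nogo+/+ muscles (SD, n = 3 each). The log2 fold change was 0.63 (SE 0.11, 95% interval 0.38 to 0.88) with an adjusted p of 0.0160 by limma, and the exact permutation test gave its smallest p, 0.1. These levels correspond to about 208 to 251 fragments per Nogo-/- library and 119 to 160 per Nogo+/+ library for a transcript of 1338 bases. Only 2.01% of the 50-base stretches of *Srm* transcripts occur in transcripts of another gene. The call did not withstand every omission of a library, since the adjusted p in limma was 0.0725 without Sample 2, 0.0584 without Sample 4 and 0.0510 without Sample 5, with log2 fold changes of 0.52 to 0.73 over the 6 omissions.

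Markers of some other cell types moved with genotype in the same libraries, and in whole muscle fewer cells of a type and less RNA per cell cannot be told apart. Over all genes, 2.75% were called lower by limma. Of 8 endothelial markers, 5 fell in Nogo-/- muscles by limma (*Kdr*, *Cdh5*, *Pecam1*, *Tek* and *Emcn*), with summed levels of 158 to 193 FPKM in Nogo-/- and 210 to 238 FPKM in Nogo+/+ muscles. *Flt1* of the same list went the other way, with 11.1, 12.5 and 11.02 FPKM in Nogo-/- muscles, against 10.96, 9.93 and 9.76 FPKM in Nogo+/+ muscles (log2 fold change 0.12, adjusted p = 0.388 by limma). Of 7 smooth muscle and pericyte markers, 2 fell (*Acta2* and *Pdgfrb*), with summed levels of 179 to 223 FPKM in Nogo-/- and 247 to 255 FPKM in Nogo+/+ muscles. All 7 had negative log2 fold changes and an unadjusted p under 0.05 in limma. Of the 8 endothelial markers, 7 were negative and 6 reached that level, beside 20.5% of all genes. Over the 6 omissions of a library *Kdr* passed in all, *Pecam1*, *Emcn* and *Acta2* in 2 each, and *Cdh5*, *Tek* and *Pdgfrb* in 1 each, with adjusted p in limma of at most 0.142. None of the 8 adipocyte markers passed in limma, and 4 had an unadjusted p under 0.05, a level that 20.5% of all genes reached. All 8 had positive log2 fold changes and summed to 465 to 902 FPKM in Nogo-/- and 404 to 488 FPKM in Nogo+/+ muscles. The macrophage and leukocyte, fibroblast, keratinocyte, Schwann cell and red blood cell markers held no call and no unadjusted p under 0.05 in limma. The part of any cell type in the change of *Srm* was not tested. Without Sample 6, the log2 fold change of *Srm* was 0.68 with an adjusted p of 0.0292 by limma. That library had the lowest *Srm* level of Nogo-/- muscles, 11.3 FPKM. Whether its keratinocyte markers bear on *Srm* was not tested.

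*Sms* (chromosome X, 157443855 to 157492287) encodes spermine synthase, which acts on the product of *Srm*. *Sms* had 33.5, 34.088 and 32.9 FPKM in Nogo-/- muscles, against 34.094, 36.6 and 37.3 FPKM in Nogo+/+ muscles. The groups did not overlap, although Sample 5 of Nogo-/- and Sample 1 of Nogo+/+ were nearly equal. By limma the log2 fold change was -0.15 (SE 0.05, 95% interval -0.27 to -0.03) with an adjusted p of 0.167, which did not pass. The ratio of *Srm* to *Sms* FPKM was 0.398, 0.378 and 0.344 in Nogo-/- muscles, against 0.256, 0.208 and 0.166 in Nogo+/+ muscles, again without overlap (exact permutation p = 0.1). This ratio was looked at after the values of both genes had been seen.

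The breakdown genes did not differ detectably. *Sat1* (chromosome X, 155213132 to 155216449) encodes the acetyltransferase that marks spermidine and spermine for export or oxidation. *Sat1* had 23.2, 31.1 and 20.1 FPKM in Nogo-/- muscles, against 22.5, 21.8 and 19.1 FPKM in Nogo+/+ muscles. Sample 5 alone was well above the rest, and the groups overlapped. Its log2 fold change was 0.15 (SE 0.14, 95% interval -0.17 to 0.46) with an adjusted p of 0.607 by limma.

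*Smox* (chromosome 2, 131491496 to 131525922) encodes the oxidase that returns spermine to spermidine. *Smox* had 326, 282 and 328 FPKM in Nogo-/- muscles, against 248, 302 and 319 FPKM in Nogo+/+ muscles. As for *Amd1*, Sample 1 was the lowest library and Sample 5 the lowest of Nogo-/-. The log2 fold change was 0.03 (SE 0.10, 95% interval -0.19 to 0.26) with an adjusted p of 0.884 in limma. *Smox* and *Amd1* had nearly equal levels in each muscle, with *Smox* to *Amd1* ratios of 0.985, 0.993 and 1.02 in Nogo-/- muscles, against 0.957, 0.933 and 1.06 in Nogo+/+ muscles. Like the ratio of *Srm* to *Sms*, this ratio was not planned in advance.

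**Figure D3:**
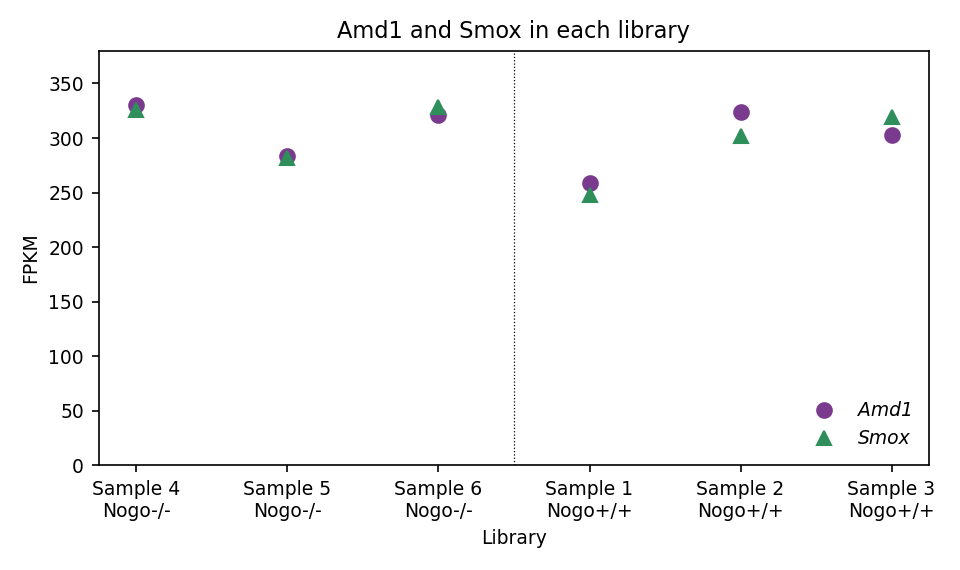
FPKM of *Amd1* (circles) and *Smox* (triangles) in each library, with Nogo-/- libraries left of the dotted line and Nogo+/+ libraries right of it. The symbols lie close together in each library, at *Smox* to *Amd1* ratios of 0.933 to 1.06, and Sample 1 is the lowest for both genes.

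On the normalized log2 scale the antizyme genes had the smallest standard deviations within genotypes of the 10 genes. *Oaz1* (chromosome 10, 80826656 to 80829290) had 353, 339 and 337 FPKM in Nogo-/- muscles, against 348, 341 and 341 FPKM in Nogo+/+ muscles. The genotypes overlapped, with means of 343 ± 8.80 FPKM in Nogo-/- and 343 ± 4.20 FPKM in Nogo+/+ muscles (SD, n = 3 each). On the normalized log2 scale *Oaz1* had a fold change of -0.06 (SE 0.03, 95% interval -0.13 to 0.00) with an adjusted p of 0.254 in limma. On that scale only 1.21% of all genes had a smaller standard deviation within the genotypes than *Oaz1*. Quantile normalization itself narrows the spread of the most abundant genes, so this share is not a measure of steadiness alone. In FPKM within Nogo-/- muscles, *Sms* varied less (SD 1.72% of the mean) than *Oaz1* (2.57%), while within Nogo+/+ muscles *Oaz1* varied less (1.22% against 4.72%).

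*Oaz2* (chromosome 9, 65668001 to 65690300), a second antizyme, had 107, 112.6 and 108 FPKM in Nogo-/- muscles, against 113.1, 116 and 115 FPKM in Nogo+/+ muscles. All Nogo-/- libraries lay below all Nogo+/+ libraries, by a small margin. The log2 fold change was -0.11 (SE 0.04, 95% interval -0.20 to -0.02), with an adjusted p of 0.172 by limma. *Azin1* (chromosome 15, 38487427 to 38519266), the antizyme inhibitor, had 17.7, 14.8 and 15.4 FPKM in Nogo-/- muscles, against 14.7, 14.2 and 15.4 FPKM in Nogo+/+ muscles. Apart from Sample 4 the libraries were close together. An antisense gene overlaps *Azin1*, and whether the authors counted by strand is not given in the sources used here. Its log2 fold change was 0.06 (SE 0.07, 95% interval -0.11 to 0.23) with an adjusted p of 0.694 in limma.

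Because antizyme acts on ornithine decarboxylase, the RNA of the enzyme was set against that of its antizymes. The FPKM of *Odc1* came to 26.7%, 20.9% and 21.1% of the summed FPKM of *Oaz1* and *Oaz2* in Nogo-/- muscles, against 13.7%, 17.9% and 18.3% in Nogo+/+ muscles. Every Nogo-/- muscle was above every Nogo+/+ muscle. The log2 ratio averaged -2.14 ± 0.20 in Nogo-/- and -2.60 ± 0.23 in Nogo+/+ muscles (SD, n = 3 each), a difference of 0.46 with the smallest p of the exact permutation test, 0.1. This ratio is not independent of the difference in *Odc1*, which did not pass limma. In FPKM, 15.9% of all genes were higher and 10% lower without overlap. *Odc1* varied more than the antizymes. On the normalized log2 scale its standard deviation within genotypes exceeded that of 89.9% of all genes, a share that was 1.21% for *Oaz1* and 3.60% for *Oaz2*.

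Genes around the pathway were read from 6 further lists, for the supply of its substrates, the other oxidase and antizyme genes, transport, the use of spermidine for hypusine on eIF5A, and known regulators. Of 45 listed genes, 31 were measured, of which 4 rose in Nogo-/- muscles, none fell and 27 did not pass. At an unadjusted p under 0.05 limma gave 8 genes higher and 2 lower, beside 20.5% of all genes in either direction. The share called was 12.9%, beside 4.64% over all genes, while their log2 fold changes had a median of -0.0075. These lists were chosen with earlier results of these data known, so the share called is no result about the lists.

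Substrate supply held 2 of the genes that rose. *Slc7a2*, a transporter of arginine, lysine and ornithine, had 16.9, 10.7 and 14.9 FPKM in Nogo-/- muscles, against 6.52, 7.18 and 7.09 FPKM in Nogo+/+ muscles. All Nogo-/- libraries were above all Nogo+/+ libraries, and the log2 fold change was 0.87 (SE 0.15, adjusted p = 0.0148 by limma). It was the only gene called of 5 measured for ornithine and arginine supply, where *Slc25a15*, the mitochondrial ornithine carrier, had a log2 value of -0.18, which did not pass (limma, adjusted p = 0.178). *Mat2a*, which makes the S-adenosylmethionine that *Amd1* uses, had 124, 116 and 137 FPKM in Nogo-/- muscles, against 89.9, 93.0 and 95.5 FPKM in Nogo+/+ muscles. These groups did not overlap either (log2 fold change 0.39, SE 0.07, adjusted p = 0.0157 by limma), and *Mat2a* was the only call among 8 genes for S-adenosylmethionine supply and methylthioadenosine salvage. In the same list *Apip*, a methylthioadenosine salvage enzyme, had a value of 0.18 on the same scale (limma, adjusted p = 0.117). Leaving out any of the 3 Nogo+/+ libraries raised the adjusted p in limma above the threshold for both genes, to at most 0.0663 for *Slc7a2* and 0.0725 for *Mat2a*.

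Among 7 measured regulators 2 rose. *Nfe2l2*, which encodes the stress-response factor NRF2, had 21.6, 20.2 and 21.1 FPKM in Nogo-/- muscles, against 14.5, 13.4 and 13.1 FPKM in Nogo+/+ muscles. The groups were far apart relative to their spread (log2 fold change 0.54, SE 0.06, adjusted p = 0.00281 by limma), and *Nfe2l2* passed in all 6 fits that left out a library. *Myc*, known for driving *Odc1* transcription, had 3.08, 3.78 and 3.12 FPKM in Nogo-/- muscles, against 1.801, 2.26 and 2.09 FPKM in Nogo+/+ muscles. Its log2 fold change was 0.46 (SE 0.10, adjusted p = 0.0458 by limma), and the call was lost in each of the 6 fits that left out a library, at adjusted p of 0.0582 to 0.135. The letters CACGTG, the core sequence to which MYC binds, were searched in the 300-base RefSeq promoter windows of 8 polyamine genes (all but *Srm* and *Azin1*). They occurred in 1 of the 2 promoters listed for *Sms*, and in 7.15% of 32851 promoters overall. Sequence outside these windows was not searched, so a gene without a hit may still hold the letters elsewhere.

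**Figure D4:**
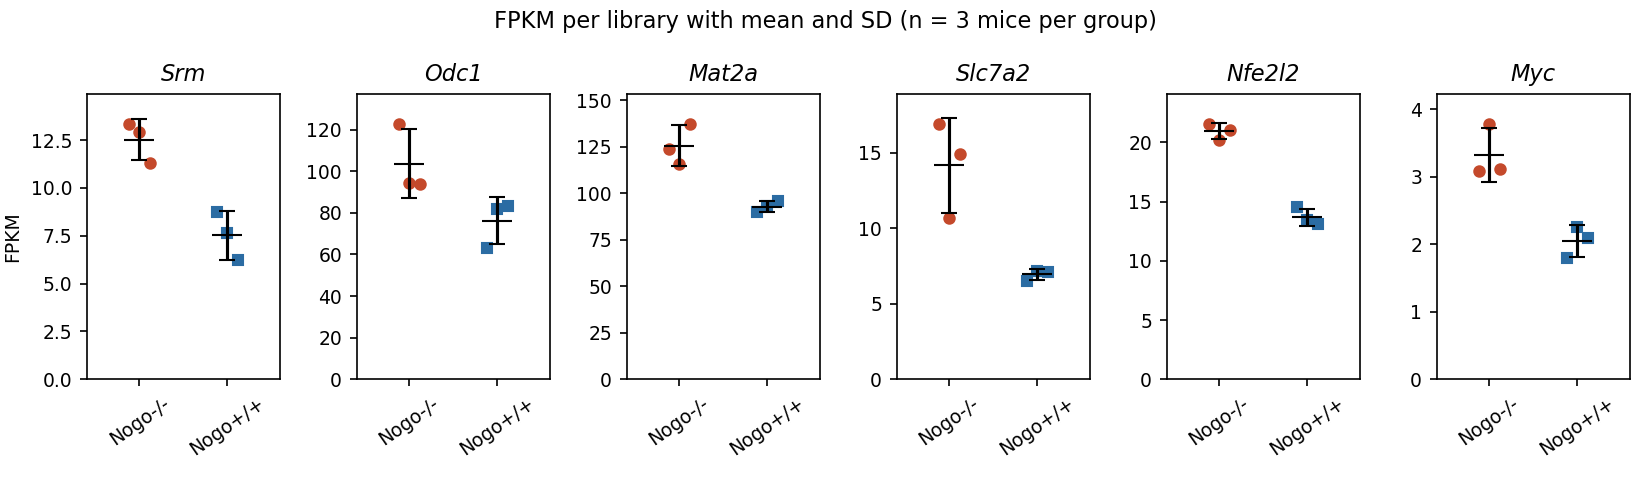
FPKM in each library, with group mean and SD (n = 3 mice per genotype), of *Srm*, *Odc1* and the 4 genes around the pathway that passed the test, with Nogo-/- left of Nogo+/+ and axes that start at 0. In each panel every Nogo-/- point lies above every Nogo+/+ point, and *Odc1* is the only gene shown that did not pass limma.

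The remaining lists held no call in limma, with 1 of 3, 2 of 5 and 0 of 3 genes at an unadjusted p under 0.05 (20.5% of all genes). Of the 3 other antizyme, inhibitor and oxidase genes, *Paox*, the oxidase of acetylated polyamines, had a log2 fold change of 0.32 and *Azin2*, a second antizyme inhibitor, 0.27 (limma, adjusted p of 0.161 and 0.259). Of 5 measured transport genes, *Slc3a2*, the heavy chain of several amino acid transporters, had 0.28 (adjusted p = 0.0681) and *Atp13a3*, a polyamine transporter, -0.18 (adjusted p = 0.196) by limma. Of the 3 hypusine genes, *Eif5a*, which encodes the factor that carries hypusine, had 287, 266 and 276 FPKM in Nogo-/- muscles, against 267, 265 and 266 FPKM in Nogo+/+ muscles. These levels were nearly alike (log2 fold change -0.01, adjusted p = 0.832, limma). *Dhps*, the first enzyme of hypusine formation, came to -0.02 on the log2 scale (limma, adjusted p = 0.905).

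The genes whose pattern over the 6 libraries was most like that of *Srm* were sought by the root-mean-square distance between centered log2 values. The search covered 6968 genes with a mean of at least 5 FPKM, leaving out the 10 polyamine genes, pseudogenes and genes with only a provisional or predicted name. The nearest was *Ephx1*, microsomal epoxide hydrolase, at a distance of 0.053. *Ephx1* had 16.1, 17.6 and 14.2 FPKM in Nogo-/- muscles, against 11.7, 9.70 and 8.35 FPKM in Nogo+/+ muscles. As in *Srm*, Sample 3 was the lowest of Nogo+/+ and Sample 6 the lowest of Nogo-/-. *Stard3*, a cholesterol-binding protein of endosomes, followed at 0.084 and *Slc43a3*, a purine transporter, at 0.088.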

How the data were processed

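Stranded mRNA libraries of 6 gastrocnemius muscles were sequenced by the authors on a HiSeq instrument. Per the labels, base calls came from CASAVA 1.8.2, adapters were removed by cutadapt 1.4.2, reads were mapped by STAR 2.6.1 on GRCm38.p6, and Cufflinks 2.2.1 gave the gene values. The authors deposited FPKM for genes that reached 1 FPKM in at least 1 library. The table holds 6 further columns of per-sample values on a log2 scale, which were not used. Its columns are numbered Sample 1 to 6. Their genotype was taken from the heading of the study's supplementary gene list, against which *Rtn4* was checked, and they carry no replicate number of the labels.

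FPKM were quantile-normalized here and tested as log2(FPKM + 1), a scale that understates the change of low genes. The test was limma 3.58.1 (R 4.3.3) without covariates, using lmFit and a trended eBayes, and p-values were adjusted over 12353 genes by Benjamini-Hochberg, with calls at 0.05. Count models were not applied, as the values are FPKM. Single values were compared by exact two-sided permutation over 20 assignments. Scripts were tested on simulated data. Symbols and coordinates came from GENCODE M21 (12342 of 12353 matched), and promoters from RefSeq on GRCm38.p6, which covered 8 of the 10 genes. Alternatives were another pseudocount, other scalings, a level filter, limma without a trend or with array weights, a fold criterion and leaving out each library. Tables were handled in Python 3.11.15.

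The members and lists were chosen with earlier results of these data known. Named are all 10 members, every gene of another list past the threshold, the 2 genes with the smallest p of each polyamine list, and the 3 genes most like *Srm*.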

Additional observations from a re-analysis of the deposited data

How the results depend on the processing

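Of 184 single values recomputed under alternatives, 156 kept their direction and side of the threshold, and of 26 counts of changed genes 19 stayed within 1.5 times. Leaving out 1 library at a time gave 188 to 434 changed genes in place of 573 (301 without Sample 1, 188 without Sample 2, 192 without Sample 3, 378 without Sample 4), 0 to 1 changed polyamine genes and a log2 fold change of *Srm* of 0.52 to 0.73. The call of *Srm* was lost without Sample 2, 4 or 5 and held under the 6 other alternatives tried, at adjusted p of 0.0127 to 0.0413 in limma. These fits hold fewer libraries, and the cause was not tested further.

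Small differences changed sign. *Amd1* had a log2 fold change of -0.017 and *Smox* of -0.015 with array weights. Over the omissions, the values were -0.079 to 0.10 for *Amd1*, -0.0031 to 0.23 for *Amd2*, -0.016 to 0.26 for *Sat1*, -0.084 to 0.11 for *Smox* and -0.00099 to 0.12 for *Azin1*. The difference of the sum of *Amd1* and *Amd2* was 16.9 FPKM and ran from -1.23 to 31.3 FPKM, reversed without Sample 1. The difference of the log2 ratio of *Odc1* to its antizymes was 0.33 to 0.54. Limma without a trend lost the calls of *Mat2a* and *Myc*, both at an adjusted p of 0.0556.

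No paired analysis was possible because the deposited columns carry no replicate number of the labels, so the replicate block was not run. The log2 columns of the authors were not used, so the alternative on them was not run either. Depth limits *Amd2*, which rests on 28 to 64 fragments per library.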
